A study of Mus musculus with 3 samples.

Results

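A set of 8 genes of the adrenergic, G-protein and protein kinase C (PKC) signalling chain of cardiac hypertrophy were followed through a map of Yap1 binding in mouse heart. They were the receptor genes Adrb1, Adra1a and Adra1b, the G-protein alpha subunit genes Gnaq, Gna12 and Gna13, and the kinase genes Prkca and Prkce. Every region whose list of genes in the authors' table held one of these symbols exactly was taken, which gave 61 of 22020 regions, and each of the 8 genes had at least 1. The 2 anti-Yap1 chromatin immunoprecipitation sequencing (ChIP-seq) libraries compared (antibody to YAP1 from US Biological) both came from hearts of male C57BL/6J mice labelled wild-type, taken 7 days after the operation. One library came from hearts after transverse aortic constriction (TAC), in which the aorta is tied to a smaller bore so that the left ventricle pumps against raised pressure, and 1 from hearts after a sham operation. The design gives 3 mice per operation, and whether a library pooled them is not stated. With 1 library per operation there was no replicate check and no test, so every difference below is between these libraries only. Whole hearts hold many cell types, and less Yap1 on the chromatin of a cell type and fewer cells of it cannot be told apart.

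Noradrenaline and adrenaline act on the heart through adrenergic receptors. The beta-1 receptor, encoded by Adrb1, couples mainly to the stimulatory G protein and raises cyclic AMP, which speeds and strengthens the heartbeat. The alpha-1 receptors, encoded by Adra1a and Adra1b, couple to Gq, whose alpha subunit activates phospholipase C beta, and the diacylglycerol and calcium released then activate PKC. This chain is a classical route to growth of cardiomyocytes under pressure load. The subunits encoded by Gna12 and Gna13 link receptors to the actin cytoskeleton instead. In cultured cells such G-protein signals are known to act on Yap1, a co-activator that reaches DNA mostly through TEAD factors.

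Signal at a region was the authors' average over the region, in the unit of their table, and the maximum was the highest value within it. The ratio was log2((TAC + 1)/(sham + 1)) of the average, and a region was counted as lower or higher when it differed by 1.5-fold on that scale. In the whole table the TAC signal was lower in general. The median ratio of all regions was -0.54, a 1.45-fold difference, and 43% of regions were 1.5-fold lower in TAC while 0.486% were higher. No source used here states how the libraries were scaled to each other, and depth is unknown, so a general difference in scale and a general difference in binding cannot be told apart. For that reason each member was also read against the median of all regions. Regions were listed at all 5 cardiomyocyte markers looked up, at all 4 endothelial and all 4 smooth muscle markers, at 3 of 4 fibroblast markers and 1 of 4 leukocyte markers, and also at 2 of 4 hepatocyte genes. A listed region shows where Yap1 signal lay, not which cell type expressed the gene.

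A start site of each member lay under Yap1 signal. Each of the 8 genes had a region spanning a RefSeq start site, although no region lay at the upstream start of Adra1b. Of these 8 regions, 7 held a CpG island, against 75.2% of all promoter regions. At Adrb1 the region ended 102 bp before the start site used by the authors. RefSeq promoter windows (250 bases before to 50 after a start, GRCm38.p6) were at hand for 6 of the genes, 7 windows in all, and not for Adra1a and Prkce. Of the 7 windows, 6 lay wholly inside a listed region, against 29.4% of 32851 windows of the reference table. Each member had a region, which the genes of the reference table need not have, so the higher share is partly set by that. The median GC content of the 7 windows was 72.3%, against 52.7% in all windows and 61.3% in windows inside regions. Of these, 4 windows are printed 5′ to 3′ on the strand of the gene, because they show the receptor starts on and off Yap1 signal and a G-protein start beside them. They are the Adrb1 window (chr19:56721867-56722166, plus strand), the Adra1b window inside a region (chr11:43836440-43836739, minus strand), the upstream Adra1b window outside any region (chr11:43901188-43901487, minus strand) and the Gnaq window (chr19:16132434-16132733, plus strand). Capitals mark matches to the motifs searched.
Adrb1: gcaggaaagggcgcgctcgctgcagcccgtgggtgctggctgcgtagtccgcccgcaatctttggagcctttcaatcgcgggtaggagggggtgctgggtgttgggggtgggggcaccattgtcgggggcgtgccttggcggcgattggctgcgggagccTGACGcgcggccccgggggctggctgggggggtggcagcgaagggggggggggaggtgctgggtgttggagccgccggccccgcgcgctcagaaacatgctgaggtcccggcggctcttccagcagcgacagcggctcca
Adra1b inside a region: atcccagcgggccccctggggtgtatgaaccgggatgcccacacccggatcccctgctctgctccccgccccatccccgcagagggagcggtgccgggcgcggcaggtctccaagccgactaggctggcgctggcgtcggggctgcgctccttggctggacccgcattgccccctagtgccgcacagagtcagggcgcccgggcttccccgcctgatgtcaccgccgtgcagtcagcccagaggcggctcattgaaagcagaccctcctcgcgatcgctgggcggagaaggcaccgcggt
Adra1b upstream, outside any region: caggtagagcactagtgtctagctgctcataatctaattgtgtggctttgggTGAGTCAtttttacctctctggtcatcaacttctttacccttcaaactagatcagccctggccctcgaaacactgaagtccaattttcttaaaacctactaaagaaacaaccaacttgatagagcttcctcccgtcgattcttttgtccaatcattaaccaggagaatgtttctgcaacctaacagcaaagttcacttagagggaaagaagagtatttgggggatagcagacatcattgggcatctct
Gnaq: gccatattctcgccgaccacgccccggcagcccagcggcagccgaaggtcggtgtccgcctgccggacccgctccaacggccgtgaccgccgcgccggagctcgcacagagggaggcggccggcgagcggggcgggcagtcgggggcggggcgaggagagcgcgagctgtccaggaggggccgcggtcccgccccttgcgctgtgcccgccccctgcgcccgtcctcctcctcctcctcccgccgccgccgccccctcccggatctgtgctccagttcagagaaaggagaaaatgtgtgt

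The 4 motifs were searched on both strands. The TEAD core GGAATG was in 0 of the 7 member windows and in 14.7% of all windows. The AP-1 motif TGANTCA was in 1 member window, the upstream Adra1b window with no Yap1 region, at -198 bases from the start, and in 7.81% of all windows. The cyclic AMP response element TGACGTCA was in 0 member windows and 1.79% of all. Its shorter core TGACG, which the full element contains, was in 1 member window, that of Adrb1 at -90 bases from the start, and in 20.8% of all. Among windows inside regions the shares were 12.7% for the TEAD core, 5.06% for AP-1, 3.39% for the full element and 33.4% for the shorter core. These windows cover a small part of the regions, and a missing match says only that the letters are not in the window.

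Across the 61 member regions the average signal had a median of 6.25 in TAC hearts and 9.42 in sham hearts, against 7.46 in TAC and 10.6 in sham for all regions. The signal was 1.5-fold lower in TAC at 37 of the 61 regions (60.7%, against 43% of all regions) and 1.5-fold higher at 0 (against 0.486%). Their median ratio was -0.67, and 60 of the 61 ratios were below 0. After the median of all regions was subtracted, 0 member regions were 1.5-fold lower and 1 was higher, against 2.31% lower and 4.42% higher among all regions. Relative to that median, 60 of the 61 member regions lay within 1.5-fold. The authors marked 21 member regions as called in TAC (34.4%, against 48.7% of all regions). They marked 59 as called in sham (96.7%, against 96.6%) and 19 as called in both (31.1%, against 45.3%). Calls in TAC differed by position. Inside a gene and at no promoter, 12 of 45 member regions were called in TAC (26.7%, against 36.4% of all such regions). All 12 were called in both (against 32.6%). At promoters, 8 of 13 were called in TAC (61.5%, against 61% of all promoter regions) and 7 in both (53.8%, against 58.5%). These shares by position also stand beside the calls of single genes below. The 40 member regions called in sham only held 28 of the lower ones (70%, against 55.2% of all such regions). Those called in both held 9 (47.4%, against 32.0%). A region called in sham only was listed through its sham signal, so a lower TAC value there is partly set by the call.

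Most member regions lay within genes and away from starts. The 45 regions inside a gene and at no promoter had a median ratio of -0.71, and 31 of them (68.9%, against 51.2% of all such regions) were lower in TAC. The 13 promoter regions had a median ratio of -0.52, and 4 of them were lower in TAC, against 35.1% of all promoter regions. CpG islands were in 8 of the 61 regions (13.1%, against 36.0% of all regions). The alpha-1 receptors weighed on these counts. Without them, 24 of 48 regions (50%) and 21 of 35 regions inside a gene (60%) were lower in TAC. Average signals in TAC and sham had a Spearman correlation of 0.54 over the 61 regions and 0.67 over all regions, as a description of regions read from the same pair of libraries.

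**Figure D1:**
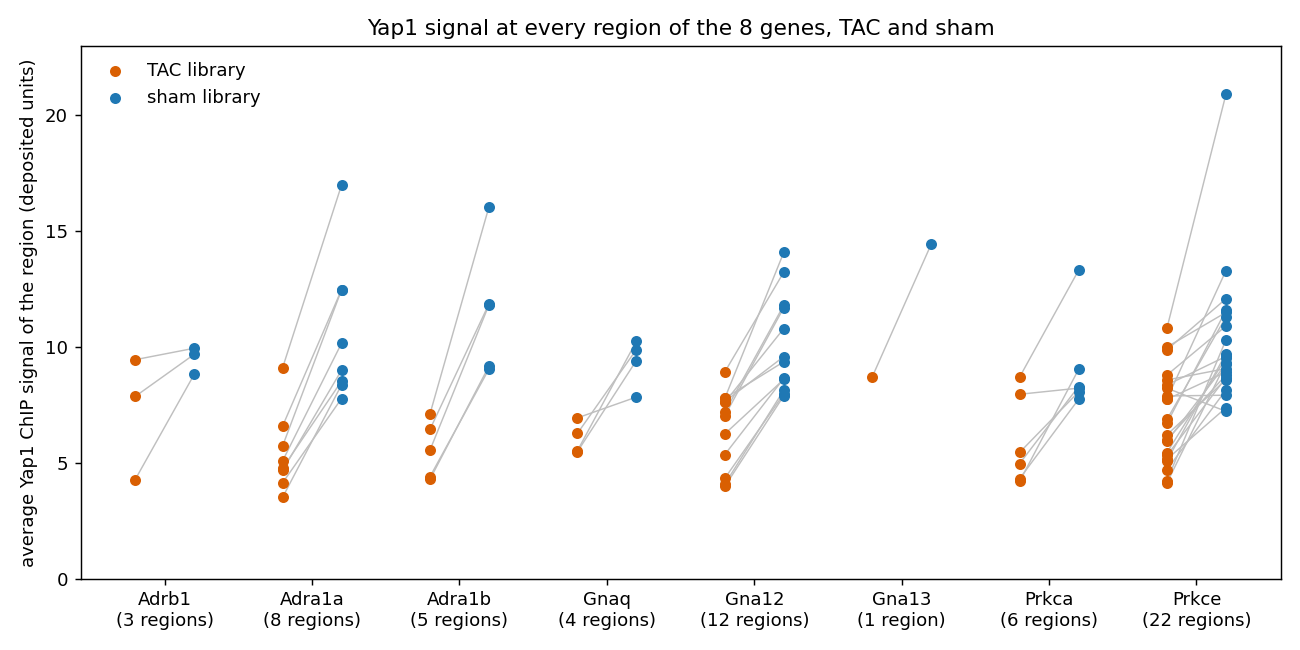
Average Yap1 signal in the TAC and sham libraries (authors' unit) at each of the 61 member regions, by gene, with 1 point per library and region and a line joining the same region. Sham points lie above TAC points at 60 of the 61 regions, and the closest pairs include regions of Adrb1, Prkca and Prkce.

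Adrb1, the beta-1 receptor, had nearly equal signal in both libraries at its start. The region that spans the RefSeq start (chr19:56721057-56722270, CpG island) had an average signal of 9.45 in TAC and 9.95 in sham, and a maximum of 22 in TAC and 19 in sham. Its ratio was -0.07, well above the median of all regions, although the authors called it in sham only. A region with its midpoint 5074 bp past the start, downstream of this short gene, had 7.86 in TAC and 9.68 in sham and was called in TAC only. The third region, 12067 bp past the start, had 4.28 in TAC and 8.81 in sham, a ratio of -0.90. Adrb1 thus held both one of the smallest and one of the larger differences among the members. The median ratio of 41 other regions within 500 kb was -0.61.

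The alpha-1 receptors were lower in TAC at every region. Their 13 regions had ratios between -1.07 and -0.73 with a median of -0.88. All 13 were past 1.5-fold (against 43% of all regions) and below the median of all regions. Of the 13, 4 were called in both libraries, against 45.3% of all regions and 32.6% of all regions inside a gene and at no promoter. The rest were called in sham only, and 55.2% of all regions with that call were lower. The smallest gap between neighbours was 64 bp in Adra1a and 760 bp in Adra1b, so the regions are not independent counts. The average signal ran from 3.51 to 9.10 in TAC (median 5.08) and from 7.78 to 17.0 in sham (median 10.2), and 1 TAC value reached the lowest sham value. The maximum signal was 1.5-fold lower at 11 of the 13, against 47.6% of all regions by that measure. Read at the strongest region of each gene, the markers had median ratios of -0.77 for cardiomyocytes (5 genes), -0.41 for endothelial cells (4), -0.46 for smooth muscle (4), -0.26 for fibroblasts (3) and -0.93 for hepatocyte genes (2), and the single leukocyte marker Cd68 had -0.61. Their part in the ratios of the receptors was not tested. The grouping of the alpha-1 receptors was chosen after its values were seen. Among all genes with at least 5 regions, 3.65% had every region 1.5-fold lower and 7.17% had every region below the median ratio. Of the 5 members with at least 5 regions, Adra1a and Adra1b were the 2 that did.

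Adra1a, the alpha-1A receptor that supports contraction and survival of cardiomyocytes, had 8 regions across its RefSeq bounds (chr14:66635251-66771240). The region over the start (chr14:66635111-66638619) held no CpG island and had an average of 5.72 in TAC and 12.5 in sham. Its maximum was 10 in TAC and 32 in sham, the lowest ratio of maximum signal among the member regions. The strongest region lay 96263 bp into the gene, with 9.10 in TAC and 17.0 in sham. It was the only one of the 8 called in TAC, against 48.7% of all regions. The region at 27806 bp had 3.51 in TAC and 8.36 in sham. The other 5 regions had ratios between -0.88 and -0.73. At 16875 bp the maximum differed little, 11 in TAC and 13 in sham, while the average was 4.67 in TAC and 9.0 in sham. The 16 other regions within 500 kb had a median ratio of -0.65.

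Adra1b, the alpha-1B receptor, had 5 regions (gene at chr11:43774605-43901250, minus strand), of which 3 were called in TAC, against 48.7% of all regions. Yap1 signal lay at its inner start (chr11:43833293-43837324), with 5.55 in TAC and 11.8 in sham, and no region lay at its upstream start. Distances are from the authors' start site, which for this gene is the inner one. The strongest region, 45639 bp past that start (chr11:43789693-43791694), had an average of 7.11 in TAC and 16.0 in sham and a maximum of 26 in TAC and 53 in sham. Its ratio of -1.07 was the lowest of the gene. The regions at 9163, 14097 and 52235 bp had ratios of -0.94, -0.79 and -0.90. In the 15 other regions within 500 kb the median ratio was -0.45, and that of the receptor's own regions was -0.94.

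**Figure D2:**
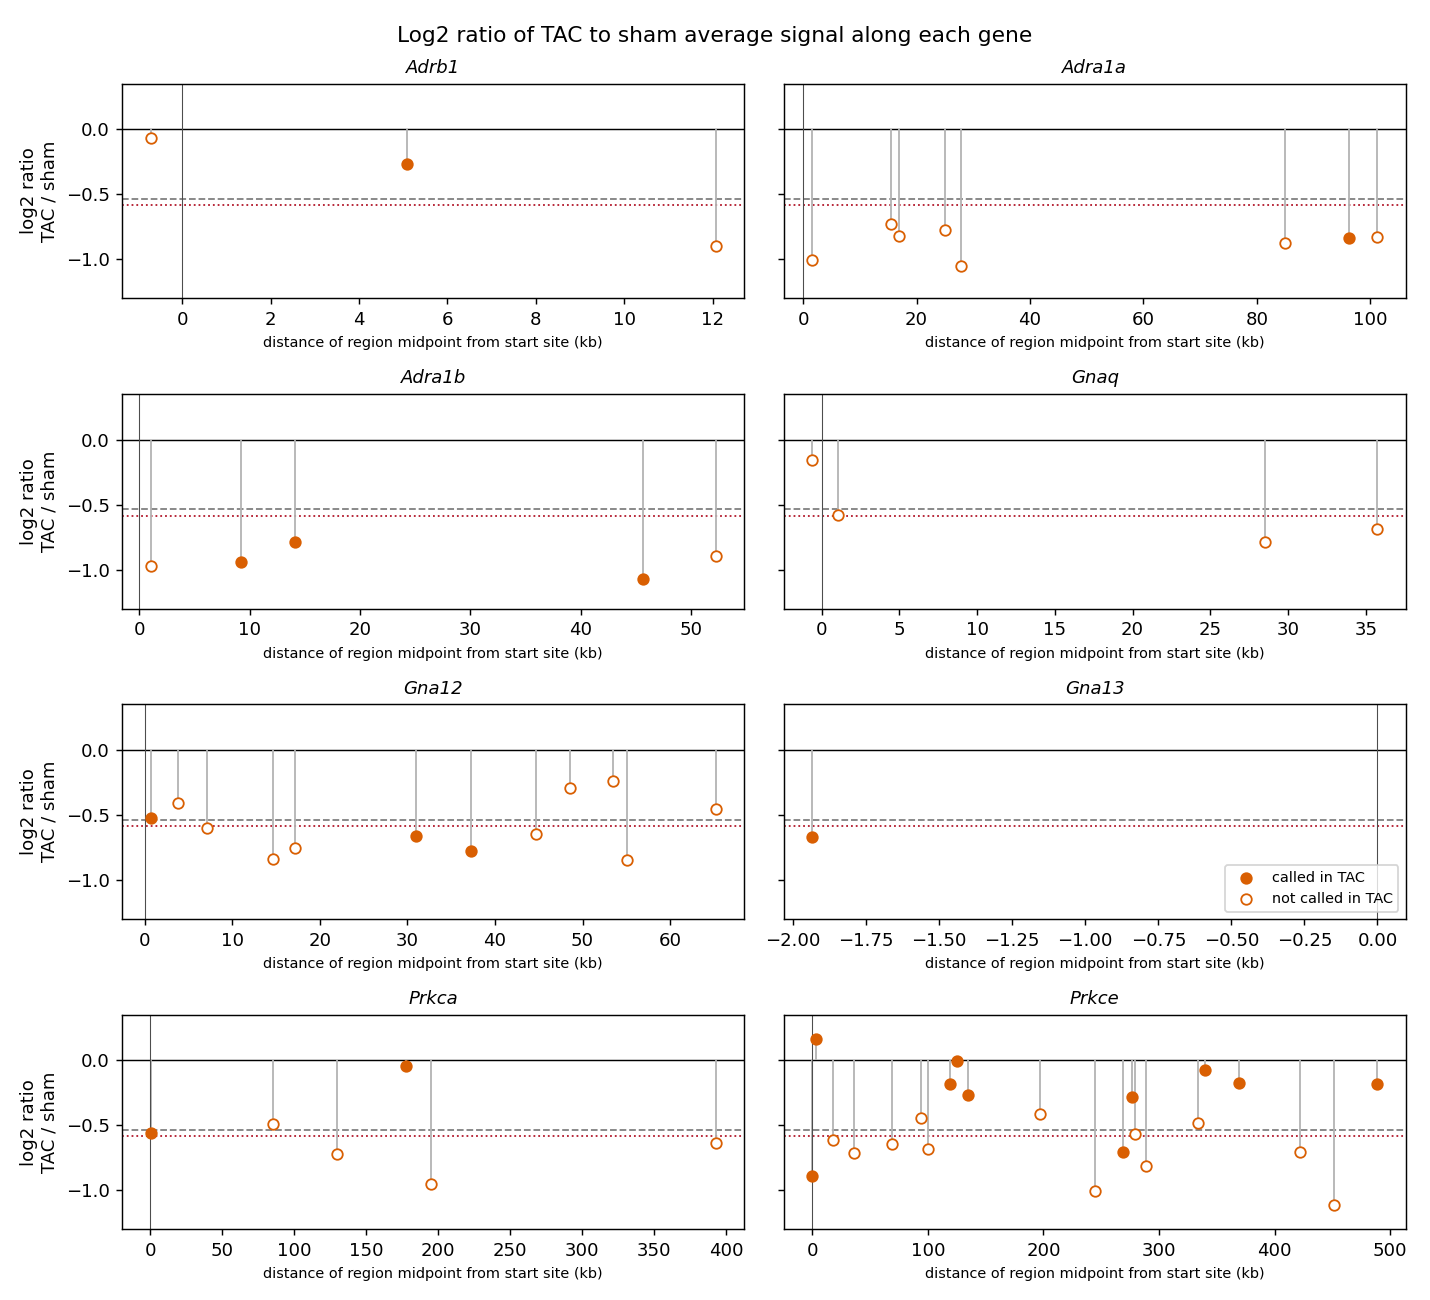
Log2 ratio of TAC to sham signal against distance of the region's midpoint from the authors' start site (kb), 1 panel per gene and 1 point per region, filled where the region was called in TAC. The grey dashed line is the median of all regions (-0.54) and the red dotted line 1.5-fold lower, and all 13 points of Adra1a and Adra1b lie below both.

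Gnaq encodes the alpha subunit of Gq, the direct partner of the alpha-1 receptors. It had 4 regions within 35747 bp of its start, and 0 were called in TAC, against 48.7% of all regions. The region over the start (chr19:16131624-16132848) had 6.94 in TAC and 7.84 in sham, a ratio of -0.15. A second region only 290 bp further on, also with a CpG island, had 6.27 in TAC and 9.89 in sham, with a ratio of -0.58 just short of 1.5-fold. The regions at 28498 and 35747 bp had 5.52 and 5.48 in TAC, and 10.2 and 9.42 in sham, and both were past 1.5-fold. At Gnaq the difference was therefore small at the start and larger inside the gene. The median ratio was -0.63 over the gene's regions and -0.47 over 3 other regions within 500 kb.

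Gna12, a subunit that links receptors to the actin cytoskeleton, was densely covered by regions. Its 12 regions spread over 67.0 kb and covered 52.6% of the gene, 17.0 regions per 100 kb, against a median of 1.88 in genes of at least 50 kb. Of 3056 such genes, 3 were as dense (0.0982%), Gna12 included. Of the 11 gaps between neighbouring regions, 6 were under 1 kb and the smallest was 21 bp. The region over the start (chr5:140828173-140831324) had an average of 8.92 in TAC and 13.2 in sham and a maximum of 20 in TAC and 45 in sham. The region at 37226 bp had 7.79 in TAC and 14.1 in sham. Ratios ran from -0.85 to -0.24 and 7 of the 12 regions were 1.5-fold lower, against 43% of all regions. The smallest differences were in neighbouring regions at 48578 and 53461 bp, with 7.64 and 7.79 in TAC, and 9.59 and 9.36 in sham. The median ratio was -0.62 over the gene's regions and -0.48 over 10 other regions within 500 kb.

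Gna13, the close relative of Gna12, had a single region, 6164 bp long, over its start (chr11:109357778-109363942). The authors listed it also for 1700096J18Rik and Gm11696. The average was 8.71 in TAC and 14.4 in sham and the maximum 28 in TAC and 40 in sham, and the region was called in both. Its ratio was -0.67, and that of 17 other regions within 500 kb had a median of -0.39. At the starts, the ratio was -0.52 for Gna12 and -0.67 for Gna13, while Gna12 had 12 regions and Gna13 had 1.

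Prkca encodes PKC alpha, a calcium-dependent isoform that restrains contractility in mouse heart. It had 6 regions along a gene of great length (chr11:107933387-108343888, minus strand). The region over the start (chr11:108342286-108344695) had 8.70 in TAC and 13.3 in sham, a ratio of -0.56. At 177744 bp the signal was nearly equal, 7.96 in TAC and 8.22 in sham. This region and the start were the 2 of 6 called in TAC, against 48.7% of all regions. At 195042 bp the signal was 4.19 in TAC and 9.03 in sham, a ratio of -0.95. The region at 129813 bp showed how the measure matters. Its average was 4.32 in TAC and 7.74 in sham, but its maximum was 13 in TAC and 12 in sham. The median ratio was -0.60 over the gene's regions and -0.57 over 7 other regions within 500 kb.

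Prkce, the calcium-independent isoform PKC epsilon, linked in mouse heart to protection from ischaemia, held 22 of the 61 regions. In the table, 9 genes had as many, Prkce included (0.0668%). The region over its start (chr17:86165757-86169861, also listed for Gm5817) was the strongest member region, with 10.8 in TAC and 20.9 in sham and a maximum of 30 in TAC and 58 in sham. Its ratio of -0.89 stood beside the only member region above 0. That region, 410 bp further on and also listed for Gm5817, had 8.22 in TAC and 7.22 in sham, a ratio of 0.17, and was called in TAC only. Of all 749 regions called in TAC only, 151 had a ratio below 0, and the median was 0.24. Such regions were listed through their TAC signal, so a ratio above 0 is partly set by the call.

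Inside Prkce the regions differed widely from each other. The lowest ratio of all members, -1.11, was at 450984 bp, with 4.24 in TAC and 10.3 in sham. At 125169 bp, in a region also listed for 2010106C02Rik, the average was nearly equal, 7.89 in TAC and 7.92 in sham, and the maximum was 20 in TAC and 15 in sham. The longest region, 9337 bp at 268714 bp from the start, had 7.76 in TAC and 13.3 in sham. There were 8 regions with a ratio of -0.3 or above. The cut of -0.3 was not fixed in advance. All 8 were called in TAC, as were 2 of the other 14. Prkce as a whole thus had 10 of 22 regions called in TAC, against 48.7% of all regions. Another gene was also listed for 4 of the 8 and for 2 of the other 14. Calls and ratios share the TAC signal, so this is a description. Over the gene 10 of 22 regions were 1.5-fold lower in TAC, close to the 43% of all regions. The median ratio was -0.53 over the gene's regions and -0.43 over 17 other regions within 500 kb.

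**Figure D3:**
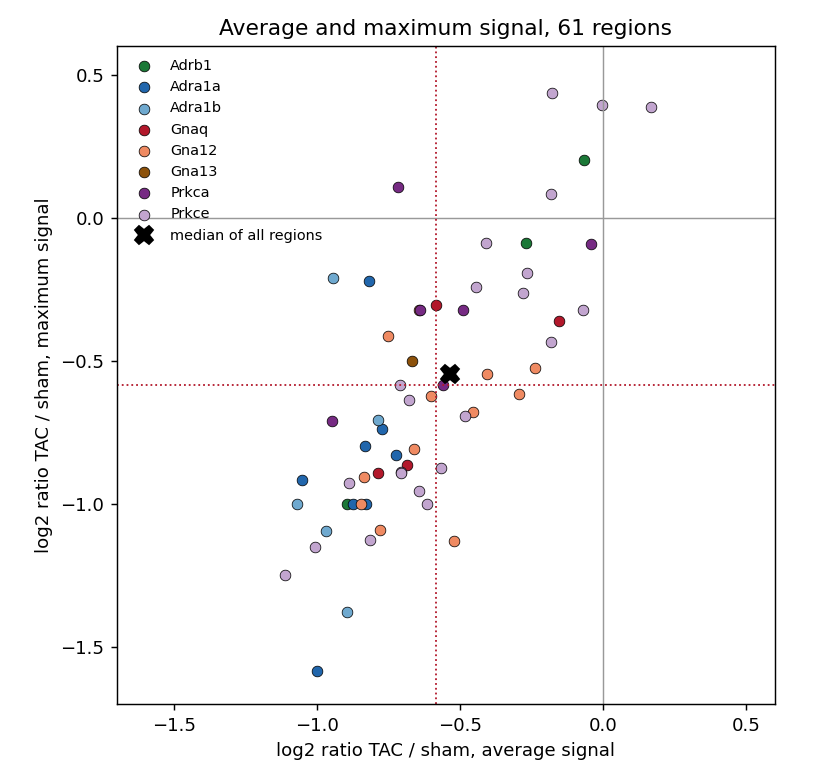
Log2 ratio of TAC to sham by maximum signal (vertical) against the same by average signal (horizontal) at the 61 member regions, coloured by gene, 1 point per region, with dotted lines at 1.5-fold lower and a cross at the medians of all regions. The Spearman correlation is 0.72, and points above 0 on the vertical axis include the start of Adrb1 and regions of Prkca and Prkce.

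By role, the medians of the ratios were -0.27 for the 3 regions of the beta receptor, -0.88 for the 13 of the alpha-1 receptors, -0.64 for the 17 of the G-protein alpha subunits and -0.56 for the 28 of the kinases. Lower in TAC were 1 region of the beta receptor, 13 of the alpha-1 receptors, 10 of the alpha subunits and 13 of the kinases. Of all regions 43% were lower, which is close to the share of the kinases. Inside genes, 10 of 10 regions of the alpha-1 receptors, 9 of 13 of the alpha subunits and 12 of 22 of the kinases were lower. Of all regions inside a gene and at no promoter 51.2% were lower, again close to the kinases. The 8 regions over starts had a median of -0.62 with 4 lower, and the other 53 regions a median of -0.68 with 33 lower. Of all promoter regions 35.1% were lower.

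The rest of the signalling chain was read from a list of 86 other genes in 10 groups, each gene taken at its strongest region. A region was listed for 67 of them, and 28 of these regions were shared with other genes. Their median ratio was -0.48, against -0.50 for all 13464 genes, and 22 (32.8%) were 1.5-fold lower in TAC, against 36.3% of all genes. None was 1.5-fold higher and 4 were above 0. Read the same way, the 8 members had a median of -0.63 and 4 were lower. The counts of the wider list were thus close to those of the whole table.

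Among receptors, the alpha-1D gene Adra1d had 5.35 in TAC and 8.94 in sham. Of the other receptors that couple to Gq, the angiotensin receptor gene Agtr1a had 5.04 in TAC and 11.6 in sham, a ratio of -1.06, and the endothelin receptor gene Ednra had 6.57 in TAC and 13.1 in sham. The endothelin receptor gene Ednrb had a ratio of -0.43. For Adrb3, Adra2a, Adra2b, Adra2c and Agtr1b no region was listed.

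Each count of lower genes in the groups that follow stands beside 36.3% of all genes. Downstream, 7 of 13 genes of the cyclic AMP arm were lower in TAC, and the group differed within itself. The adenylyl cyclase gene Adcy6 had 10.8 in TAC and 20.5 in sham. Adcy4, another gene of that family, had 9.76 in TAC and 9.10 in sham. Both of these regions were shared with another gene. Over all regions of each gene, 1 of 4 was 1.5-fold lower at Adcy6 and 1 of 2 at Adcy4. The gene Prkacb, for a catalytic subunit of protein kinase A, had 12.5 in TAC and 14.2 in sham. Of 7 other PKC and PKD genes, 2 were lower, and the lowest was Prkci, with 11.2 in TAC and 20.5 in sham. Of 12 genes for phospholipase C, IP3 receptors and diacylglycerol kinases, 3 were lower, Plcb2 the most at -0.91. Beta and gamma subunits and receptor kinases with arrestins had 0 of 6 lower in each group, and the arrestin gene Arrb2 had 10.1 in TAC and 9.40 in sham. The other G-protein alpha subunits had 1 of 6 lower, and Gnao1, with 9.39 in TAC and 8.86 in sham, was above 0.

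**Figure D4:**
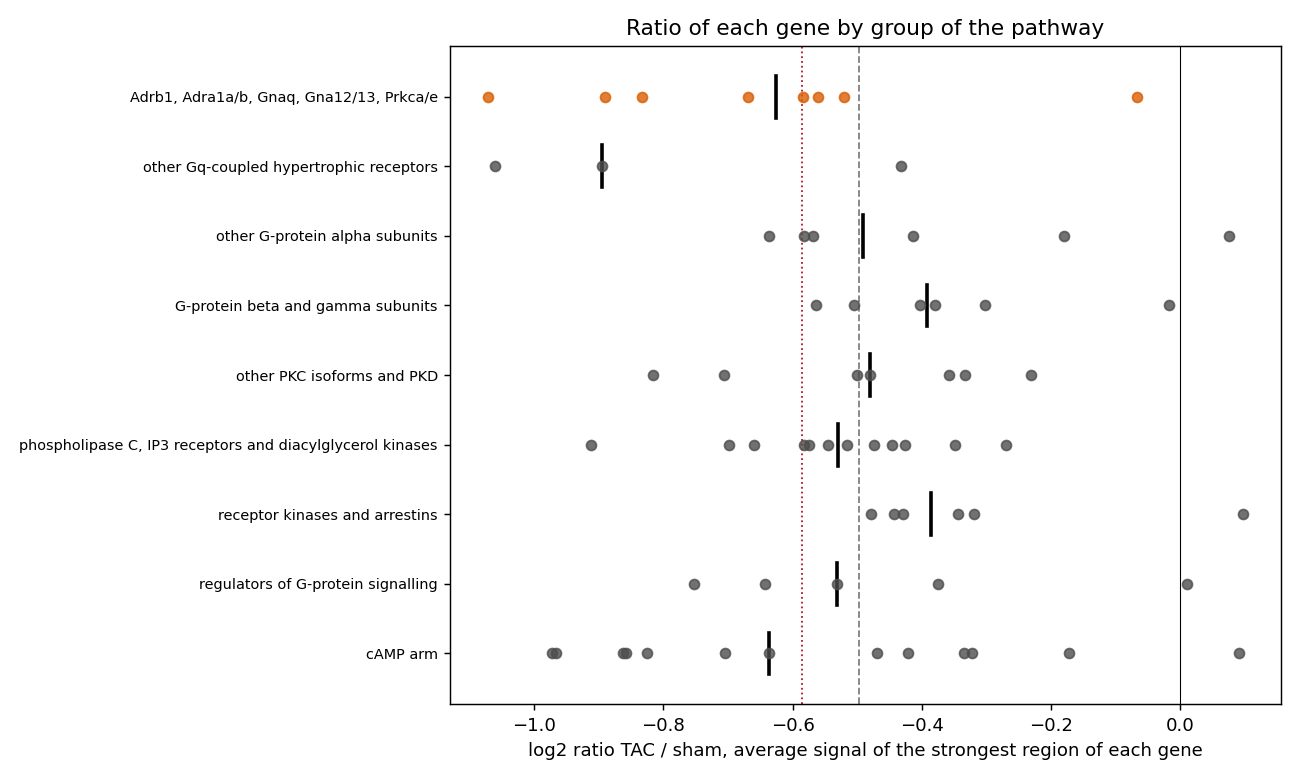
Log2 ratio of TAC to sham at the strongest region of each gene, for the members and 8 groups of the signalling chain, with 1 point per gene and a vertical bar at each group's median. The dashed grey line is the median of all genes (-0.50) and the dotted red line 1.5-fold lower, and the members' median lies at -0.63.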

How the data were processed

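Yap1 ChIP-seq was done on hearts after TAC or sham operation, with 1 anti-Yap1 library per operation. Libraries were made by a company, per the labels' protocols. Reads were aligned with BWA and regions called with MACS 1.4.2 on mm10, per the submitters' processing notes. For each merged region the deposited table gives, per the file headers, an average and a maximum signal and a call mark in each library. No source used here gives scaling, threshold or depth. The pooled input was not analysed here.

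Ratios were log2 of (TAC + 1)/(sham + 1), from the average signal as deposited, which understates differences of weak regions. A size of 1.5-fold counted a region as lower or higher, and no p-value was computed. A gene of the wider list was read at its region of highest mean signal in both libraries. Some genes of the wider list are not reported here. From its other groups the text names genes among the 2 strongest, the 2 highest and the 2 lowest ratios. The members and lists were chosen with earlier results of these data known. Start sites and promoter sequences are from RefSeq, GRCm38.p6, and exon or intron was not determined. The computation was checked on the sham values with known changes put in and on a small made-up example, which covers its arithmetic only. Python 3.11.15 with pandas 2.3.3 and numpy 2.4.6 was used.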

Additional observations from a re-analysis of the deposited data

How the results depend on the processing

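The count of 37 member regions 1.5-fold lower in TAC became 12 with a pseudocount of 5 (14.1% of all regions). At 2-fold it was 5 (5.12%). It was 0 after subtracting the median (2.31% of all regions) and 1 after quantile normalization (1.39%). Under both scalings 1 region was then higher, against 4.42% and 4.09% of all regions. The count of lower regions was 9 of 19 among regions called in both libraries (32.0% of all such regions). Among regions at or above the median signal it was 13 of 20 (38.3%). The members' median over genes of -0.63 became -0.46 with a pseudocount of 5, -0.0895 after subtracting the median, -0.15 after quantile normalization, -0.56 over regions listed for 1 gene, -0.56 as a mean over regions and -0.58 without Prkce. The median over regions of -0.67 became -0.46, -0.13 and -0.10 under the first 3 of these, and -0.56 in regions called in both libraries. For the alpha-1 receptors, 13 regions lower became 8 with a pseudocount of 5, 3 at 2-fold, 0 after subtracting the median and 1 after quantile normalization, with 4 of 4 among called and 5 of 5 among strong regions. The shares of all regions given above for each setting stand beside these counts too. The median of the alpha-1 receptor regions, -0.88, became -0.34 and -0.31 under the scalings. The wider list's median ran from -0.54 to 0.06, the highest after subtracting the median. By maximum signal, the Prkca region at 129813 bp, which was past 1.5-fold lower, turned to 0.11. Another 4 regions, within 1.5-fold by the average, also turned positive, to 0.20 at the Adrb1 start and to 0.39, 0.44 and 0.082 at 125169, 368768 and 488854 bp in Prkce. The cause was not tested. Leaving out Prkce, and all values of the alpha-1 group, were chosen after seeing the data.

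No paired analysis was possible because each operation had 1 library. Depth is unknown, and no error can be given for any ratio.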
